A study of Homo sapiens with 58 samples.

Results

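Ethanol extract of Scutellariae Radix, the dried root of Chinese skullcap, was given to HepG2 cells at 500 µg/mL for 24 h and compared with the solvent, DMSO. HepG2 is an established line from a human hepatocellular carcinoma that keeps many hepatocyte genes active. The comparison used the 3 libraries that the sample labels place at the high dose of this extract and the 3 vehicle libraries, 6 of the 58 libraries analysed. The same extract at 20 µg/mL (low) and 100 µg/mL (medium), and ethanol extracts of Pinelliae Tuber and of Zingiberis Rhizoma Recens (fresh ginger) at 500 µg/mL, served for further comparisons, each with 3 libraries. All groups were the same cell line at the same time. The vehicle is DMSO at 0.1% by its sample labels and at 2% by the series text, and the labels of the extract libraries give no DMSO content. The labels do not say whether the replicates were separate cultures. The p-values rest on the spread between replicate libraries, estimated over all 24 groups of the series, and that spread may be technical. In the sample codes the vehicle has its own leading number or prefix, and Scutellariae Radix has one in common with Pinelliae Tuber. The labels of the vehicle and of all these extracts carry the same word, BatchC. What BatchC and the prefix stand for is not stated, so prefix and treatment cannot be told apart against the vehicle. The comparisons with the lower doses and with Pinelliae Tuber stay within the prefix.

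Scutellariae Radix is known for flavones such as baicalin, baicalein and wogonin. Flat aromatic compounds of this kind can bind the aryl hydrocarbon receptor (AhR), a ligand-activated transcription factor that switches on the cytochrome P450 gene CYP1A1 and other genes of drug metabolism. Cells that meet reactive or toxic compounds commonly engage NRF2, which drives glutathione and thioredoxin genes, and ATF4, which drives amino acid supply genes when translation is restrained. Growth factor and stress kinases act within minutes on immediate early genes such as FOS and EGR1, whose products then act on further genes. In liver cells the BMP and SMAD pathway sets the level of hepcidin, the hormone that limits iron release into blood.

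Expected counts summed to 27835159, 24345937 and 25424030 in the Scutellariae Radix high libraries, against 24077535, 26409029 and 25174831 in the vehicle libraries. Genes with reads numbered 22238 to 22601 per library at the high dose and 21600 to 21803 in the vehicle, and the part of this gap in the results was not tested. Of 13945 genes tested, 3998 were higher at the high dose (28.7%) and 3914 were lower (28.1%) when p-values of the quasi-likelihood test of edgeR, adjusted by the Benjamini-Hochberg method, were held to 0.05. The median log2 fold change over all genes tested was 0.0093. The common dispersion fitted over all 24 groups gave a coefficient of variation between replicates of only 4.25%, counting error left out. Small changes therefore passed the test, and 691 genes (4.96%) passed it with a change of 2-fold or more. Of these, 451 were higher and 240 lower at the high dose. Levels below are CPM, the gene's counts scaled to the TMM-adjusted library total, which compare samples within a gene and not genes with each other. Fold changes are log2 values of the high dose over the other group, with the standard error (SE) from the fit.

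**Figure D1:**
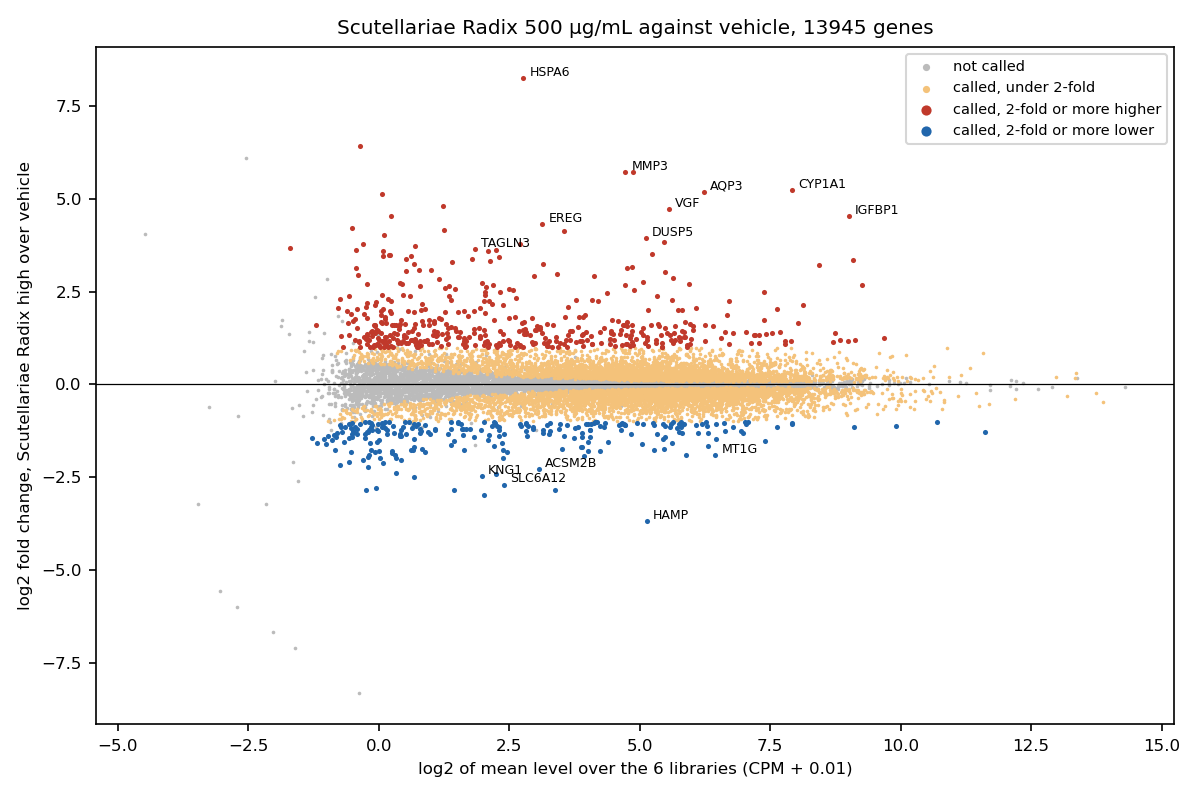
Log2 fold change of Scutellariae Radix high over vehicle (vertical) against the log2 of the mean level in CPM over the 6 libraries (horizontal), 1 point per gene for 13945 genes. Red points are the 451 genes called at 2-fold or more higher and blue points the 240 lower, and some of the genes with the largest rises and falls are labelled. CYP1A1 and IGFBP1 stand at both high fold and high level, and the point of HSPA6 is a fitted value that rests on 3 vehicle reads.

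The libraries carried the marker genes of hepatocytes. All 10 hepatocyte markers entered the test, their summed level was 30811 to 31271 CPM at the high dose and 42220 to 42781 CPM in the vehicle, and all 10 were lower at the high dose. Markers of other cell types were few. Among 8 fibroblast markers the sum was 3.89 to 4.94 CPM at the high dose and 10.3 to 11.9 CPM in the vehicle, with COL1A2, DCN and LUM at 0. Among 8 leukocyte markers it was 1730 to 1736 CPM at the high dose and 1326 to 1407 CPM in the vehicle, nearly all from LYZ, while PTPRC and CD3E were at 0. The 8 endothelial markers summed to 3.06 to 3.82 CPM at the high dose and 3.76 to 4.98 CPM in the vehicle, with KDR, TEK, EMCN and ERG at 0. The 8 intestinal markers summed to 214 to 223 CPM at the high dose and 377 to 387 CPM in the vehicle, almost all from VIL1, with SI and CDX1 at 0. The 8 lung markers summed to 1.34 to 1.51 CPM at the high dose and 1.3 to 1.65 CPM in the vehicle, with SFTPA1, NKX2-1, SCGB1A1 and SFTPD at 0. The part of these markers in the results was not tested.

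The 15 largest rises were taken among called genes with a mean of 5 CPM or more in the higher group and with no overlap between the 3 high dose and the 3 vehicle libraries, so the absence of overlap in these genes is part of the choice. HSPA6, MMP3 and IGFN1 led them. A gene was tested if it reached 1 CPM in 3 or more libraries. Among the groups compared here HSPA6 reached that level only at the high dose, so its rank follows in part from this filter. The heat shock gene HSPA6, a strictly inducible member of the HSP70 family (chromosome 1, 161524540 to 161526910, GRCh38), had 14.3, 13.6 and 12.8 CPM at the high dose, against 0.123, 0 and 0 CPM in the vehicle. In counts this was 406, 343 and 335 reads at the high dose, against 3, 0 and 0 reads in the vehicle, a ratio of 352 with an exact 95% interval of 120 to 1711 that covers counting error only. MMP3, which encodes the matrix protease stromelysin-1, had 58.9, 50.5 and 45.9 CPM at the high dose, against 1.11, 1.08 and 0.708 CPM in the vehicle. IGFN1, an immunoglobulin-like and fibronectin domain gene known from muscle, had 61.0, 56.8 and 53.7 CPM at the high dose, against 0.988, 1.15 and 1.06 CPM in the vehicle. MMP3 and IGFN1 were near 1 CPM in every vehicle library and above 45 CPM in every high dose library. The log2 fold change was 5.74 for MMP3 (SE 0.16, adjusted p = 1e-31, edgeR) and 5.73 for IGFN1 (SE 0.17, adjusted p = 3.5e-30).

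AQP3, a channel for water and glycerol, had 152, 139 and 147 CPM at the high dose, against 4.12, 4.24 and 3.58 CPM in the vehicle, a log2 fold change of 5.20. VGF, which encodes a precursor of neuroendocrine peptides, had 93.6, 86.8 and 92.3 CPM at the high dose, against 3.62, 3.24 and 3.38 CPM in the vehicle (4.74 on the log2 scale). Both genes were below 5 CPM in every vehicle library. The remaining genes among the 15 with the largest rise were CYP1A1, IGFBP1, EREG, PAQR5, DUSP5, IL11, METRNL, TAGLN3, AMPD3 and FOS, with log2 fold changes from 3.61 (FOS) to 5.24 (CYP1A1). PAQR5 encodes a membrane progesterone receptor (4.13), METRNL a secreted meteorin-like protein (3.80), TAGLN3 a calponin-family protein known from neurons (3.66) and AMPD3 an AMP deaminase (3.62). For 11 of these 15 genes the lowest high dose library lay above all 55 other libraries of the series, which include the lower doses and all other extracts. Over all 13945 genes tested this held for 615 (4.41%), and since the 15 were chosen for their rise the count is a description.

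AhR target genes rose, and 5 of the 7 that rose were lower at the high dose than at the medium dose. Of 10 listed genes 8 were tested, 7 were higher at the high dose than in the vehicle and none was lower, and their median log2 fold change was 1.18. CYP1A1, the cytochrome P450 that oxidises polycyclic aromatic compounds (chromosome 15, 74719542 to 74725610), had 458, 467 and 486 CPM at the high dose, against 12.7, 10.8 and 14 CPM in the vehicle. The groups were far apart, with a log2 fold change of 5.24 (SE 0.09, adjusted p = 1.9e-39, edgeR). By dose, CYP1A1 averaged 12.5 ± 1.7 CPM in the vehicle, 237 ± 33 CPM at 20 µg/mL, 681 ± 26 CPM at 100 µg/mL and 470 ± 14 CPM at 500 µg/mL (SD, n = 3 each). All 3 medium libraries (657, 679 and 708 CPM) lay above all 3 high dose libraries, and the difference of high from medium was -0.53 on the log2 scale (SE 0.065, adjusted p = 2.1e-09).

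In the smaller members AHRR and ALDH3A1 the mean was highest at the medium dose as well. AHRR, the AhR repressor, averaged 0.639 ± 0.043 CPM in the vehicle, 1.00 ± 0.16 at the low, 2.98 ± 0.53 at the medium and 1.99 ± 0.47 CPM at the high dose, and the high dose differed from the medium by -0.60 (adjusted p = 0.0048, edgeR), with 2.39 CPM in the lowest medium library and 2.41 CPM in the highest high dose library. ALDH3A1, an aldehyde dehydrogenase, averaged 0.403, 1.70, 3.02 and 1.94 CPM in that order, a difference of high from medium of -0.64 (adjusted p = 0.00083). Its difference of high from low did not pass the test (0.18, adjusted p = 0.4, edgeR). CYP1A2, the close neighbour of CYP1A1, was near the limit of detection, with 20, 13 and 12 reads at the high dose against 1, 2 and 0 reads in the vehicle (ratio 14.6, exact 95% interval 4.69 to 73.6, counting error only). AHR itself, the receptor, behaved differently, with 58, 66.5 and 63.7 CPM at the high dose against 42.5, 40.2 and 41.3 CPM in the vehicle, and 42.1 ± 1.9 CPM at the medium dose. Its rise was 0.60 over the vehicle and 0.57 over the medium dose. TIPARP, a poly-ADP-ribose polymerase on the same list, had 25.7, 26.6 and 25.0 CPM at the high dose, against 23.4, 24.4 and 23.6 CPM in the vehicle and did not pass the test (0.11, adjusted p = 0.16). AHR and TIPARP were chosen for the text after their values were seen. Over the list, 1 gene was higher and 5 were lower at the high than at the medium dose, with a median of -0.36, beside 26.8% higher and 27.1% lower among all genes in that comparison.

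The promoter of CYP1A1 is shown because it is the gene with the dose order just described. The bases run from 250 to 1 upstream of the RefSeq start (GRCh38.p14, chr15:74725529-74725778, minus strand), and capitals mark GCGTG, the core of the xenobiotic response element, searched on both strands. It occurs once, 57 to 53 bases upstream, as it or its complement does at least once in 32.2% of 35116 such windows of RefSeq genes.
CYP1A1: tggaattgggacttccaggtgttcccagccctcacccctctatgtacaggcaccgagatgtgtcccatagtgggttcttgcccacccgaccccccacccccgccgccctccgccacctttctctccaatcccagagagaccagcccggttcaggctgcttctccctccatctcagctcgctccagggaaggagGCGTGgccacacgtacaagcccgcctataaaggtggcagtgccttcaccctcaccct

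NRF2 target genes were higher at the high dose. Of 24 listed genes 23 were tested, and 22 were higher and none lower at the high dose than in the vehicle, with a median of 0.81. SLC7A11, the cystine importer that feeds glutathione synthesis, had 293, 292 and 262 CPM at the high dose, against 48.1, 52.1 and 49.6 CPM in the vehicle (log2 fold change 2.50, SE 0.056). GCLM, the modifier subunit of the first enzyme of glutathione synthesis, averaged 54.4 ± 2.2 CPM in the vehicle, 75.1 ± 6.6 at the low, 111 ± 4 at the medium and 145 ± 9.1 CPM at the high dose. TXNRD1, thioredoxin reductase, averaged 237, 319, 390 and 625 CPM and SRXN1, sulfiredoxin, 112, 147, 183 and 299 CPM in that order. In these genes the mean stepped up at each dose, and the high dose libraries did not overlap those of any lower dose. NQO1, a quinone reductase, and HMOX1, heme oxygenase, did not show this last step. NQO1 had 1103, 1124 and 1116 CPM at the high dose against 1170, 1141 and 1211 CPM at the medium dose, and HMOX1 had 95.6, 89.7 and 87.8 CPM at the high dose against 93.4, 89.5 and 85.6 CPM at the medium dose. Neither passed the test between these doses (log2 -0.07, adjusted p = 0.099, and 0.02, adjusted p = 0.7, edgeR), while both were higher than in the vehicle (0.74 and 0.62).

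**Figure D2:**
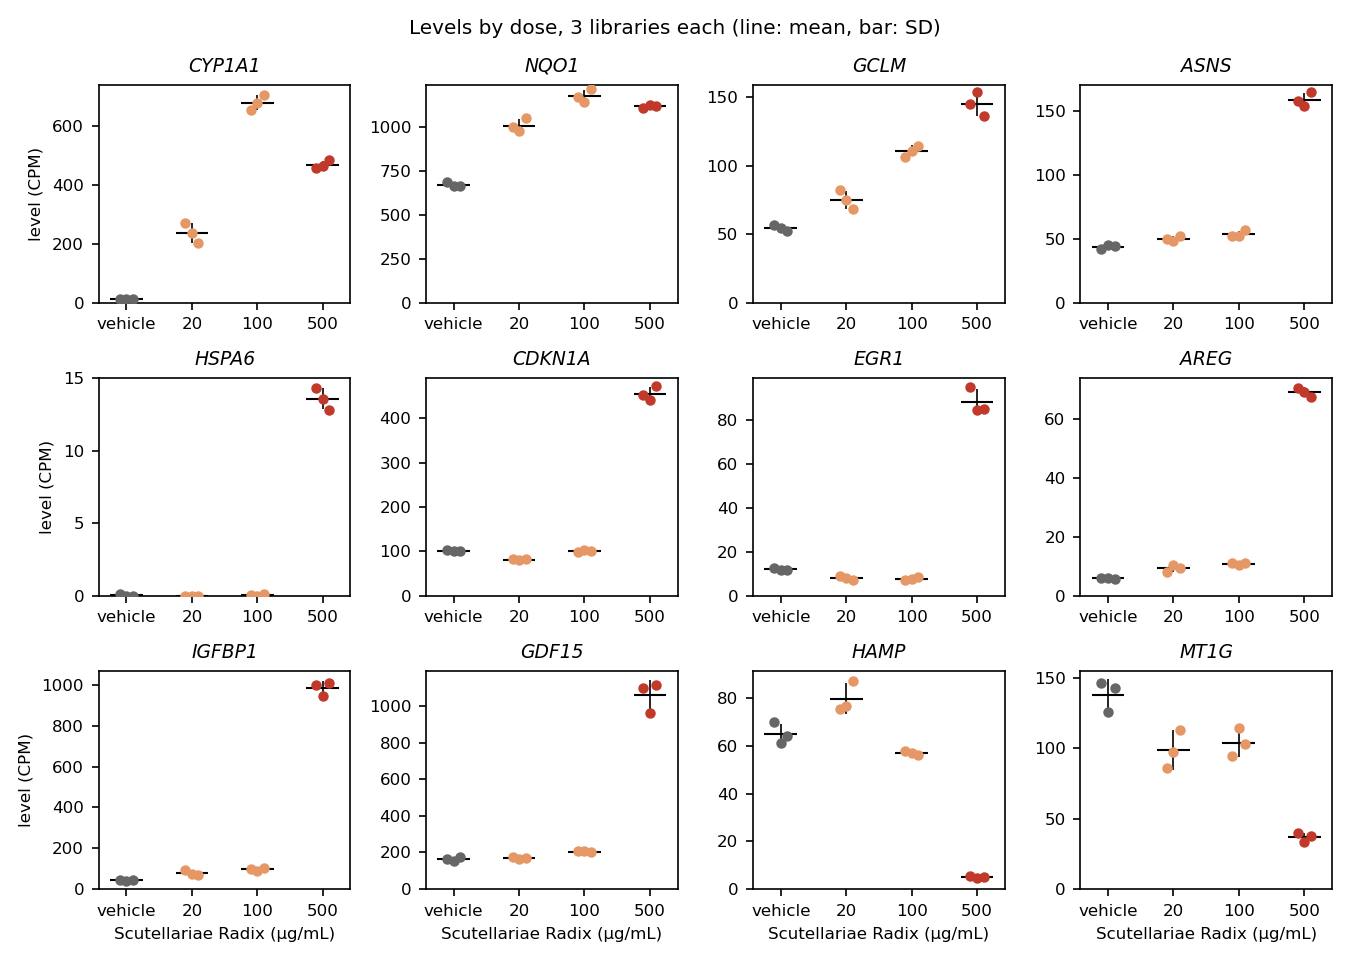
Level in CPM (vertical, linear, from 0) of 12 genes in each library of the vehicle and of Scutellariae Radix at 20, 100 and 500 µg/mL (horizontal), with the mean as a line and the SD as a bar. CYP1A1 is highest at 100 µg/mL, GCLM steps up with dose, NQO1 does not step up from 100 to 500 µg/mL, and ASNS, HSPA6, CDKN1A, EGR1, AREG, IGFBP1, GDF15 and HAMP depart most at 500 µg/mL.

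ATF4 and CHOP targets were higher at the high dose than in the vehicle and than at the medium dose. Of 24 listed genes 23 were tested, 22 were higher and 1 was lower than in the vehicle, with a median of 0.95. Against the medium dose 20 were higher and 2 lower, with a median of 0.98. ASNS, asparagine synthetase, had 158, 154 and 165 CPM at the high dose, against 42.2, 44.9 and 44.4 CPM in the vehicle, and 52.2, 52.4 and 56.9 CPM at the medium dose. ATF3, a stress-induced transcription factor, had 32.4, 30 and 30.2 CPM, against 4.07, 4.35 and 3.74 CPM in the vehicle. SESN2, sestrin 2, had 76.4, 76.3 and 77.4 CPM at the high dose, against 25.2, 27.9 and 24.2 CPM in the vehicle, and 21.6 ± 0.22 CPM at the medium dose. The high dose stood clear of the other doses in each of these genes, and the log2 fold changes over the vehicle were 1.86 (ASNS), 2.93 (ATF3) and 1.57 (SESN2). DDIT3, which encodes CHOP, rose less, with 23.9, 21.9 and 25.9 CPM at the high dose, against 13, 11.8 and 12.4 CPM in the vehicle (0.95, adjusted p = 2.5e-15, edgeR). Cytosolic tRNA synthetases moved the same way, with 14 of 18 higher and 1 lower than in the vehicle (median 0.32), led by CARS1 (0.91), SARS1 (0.89), MARS1 (0.73) and GARS1 (0.61).

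Endoplasmic reticulum chaperones went the other way. Of 20 genes of chaperones and the unfolded protein response, 3 were higher and 13 lower than in the vehicle, with a median of -0.19. CALR, calreticulin, had 933, 889 and 926 CPM at the high dose, against 1406, 1398 and 1362 CPM in the vehicle (-0.60, SE 0.032). MANF, a secreted stress protein (-0.59), and PDIA4, a disulfide isomerase (-0.52), were lower as well. ERN1, the sensor kinase and nuclease IRE1, was the exception in size, with 44.9, 43.7 and 42.1 CPM at the high dose, against 12.9, 14.9 and 15.2 CPM in the vehicle (1.60, SE 0.062).

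Of 16 listed heat shock genes 5 were higher and 5 lower than in the vehicle, with a median of 0.02, close to the shares of 28.7% and 28.1% over all genes. HSPA6 was not on that list. HSPA1A had 240, 218 and 231 CPM at the high dose against 148, 154 and 161 CPM in the vehicle (0.57), and HSPA1B rose by 0.53. These genes are near-identical copies whose reads the counting shares between them. HSP90AA1, the inducible HSP90, was lower, with 1947, 1920 and 1958 CPM at the high dose, against 2358, 2606 and 2305 CPM in the vehicle (-0.32), and HSPB1, a small heat shock protein, was lower by the same test (-0.38, adjusted p = 8.9e-06, edgeR). HSPA8, the HSP70 form that cells make at all times, had 1603, 1595 and 1590 CPM at the high dose, against 1706, 1699 and 1687 CPM in the vehicle (-0.09, adjusted p = 0.041). It was chosen after its values were seen, and it missed the threshold with any 1 of the 6 libraries left out (adjusted p 0.062 to 0.089).

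The promoters of HSPA6 (chr1:161524290-161524539, plus strand) and HSPA8 (chr11:123062137-123062386, minus strand) are shown because the gene with the largest rise and a family member with a small difference both carry a heat shock element. Capitals mark 3 units in alternating direction, GAA, TTC and GAA or TTC, GAA and TTC, each 2 bases from the next, which stand in 0.441% of the windows on either strand. HSPA6 holds 1, at 74 to 62 bases upstream, and HSPA8 holds 2, at 230 to 218 and 55 to 43 bases upstream.
HSPA6: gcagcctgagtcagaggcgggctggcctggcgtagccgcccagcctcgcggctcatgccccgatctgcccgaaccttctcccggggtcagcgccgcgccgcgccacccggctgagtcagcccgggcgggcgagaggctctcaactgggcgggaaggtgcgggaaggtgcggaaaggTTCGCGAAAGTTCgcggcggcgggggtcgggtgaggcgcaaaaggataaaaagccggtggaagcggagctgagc
HSPA8: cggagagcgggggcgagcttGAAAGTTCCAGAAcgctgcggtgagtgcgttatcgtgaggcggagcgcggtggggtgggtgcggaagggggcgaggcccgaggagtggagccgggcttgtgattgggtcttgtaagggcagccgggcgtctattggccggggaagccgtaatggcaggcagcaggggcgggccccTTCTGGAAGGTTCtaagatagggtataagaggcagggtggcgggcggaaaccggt

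Immediate early genes were higher at the high dose than in the vehicle and at both lower doses. Of 21 listed genes 19 were tested, and 18 were higher and none lower than in the vehicle, with a median of 1.41. Against the low and the medium dose the counts were again 18 higher and none lower, with medians of 1.42 and 1.39. EGR1, a zinc finger transcription factor, had 94.8, 84.7 and 84.9 CPM at the high dose, against 12.7, 11.6 and 11.9 CPM in the vehicle. FOS, a subunit of AP-1, had 8.78, 7.91 and 6.86 CPM at the high dose, against 0.494, 0.670 and 0.747 CPM in the vehicle. Its relative FOSB had 5.13, 4.97 and 4.33 CPM at the high dose, against 0.494, 0.558 and 0.393 CPM in the vehicle. The log2 fold changes were 2.87 (EGR1), 3.61 (FOS) and 3.30 (FOSB), with no overlap between the groups. At the low and medium doses EGR1 averaged 8.14 ± 0.83 and 7.74 ± 0.65 CPM, beside a vehicle mean of 12.1 ± 0.55 CPM, and the difference of high from medium was 3.51 (SE 0.08, adjusted p = 2.7e-34, edgeR).

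Ligands of the EGF receptor and feedback inhibitors of ERK signalling rose as well. Of 20 genes on that list 15 were higher and 3 lower than in the vehicle (median 0.79). Among the ligands, AREG, amphiregulin, had 70.6, 69.1 and 67.3 CPM at the high dose, against 6.17, 6.14 and 5.86 CPM in the vehicle (log2 fold change 3.51). EREG, epiregulin, which lies beside AREG on chromosome 4, had 17.8, 16.1 and 16.2 CPM at the high dose, against 0.782, 1.12 and 0.590 CPM in the vehicle (4.32). HBEGF, the heparin-binding ligand, had 9.17, 8.31 and 8.74 CPM at the high dose, against 2.39, 2.49 and 2.67 CPM in the vehicle (1.79). At 20 µg/mL AREG averaged 9.28 ± 1.3 CPM and EREG 1.39 ± 0.3 CPM, above their vehicle means of 6.06 and 0.829 CPM by a difference that was not tested. Among the inhibitors, DUSP5, a nuclear phosphatase of ERK, had 72.5, 63.2 and 60 CPM at the high dose, against 4.49, 4.20 and 3.97 CPM in the vehicle (3.95), and averaged 3.22 ± 0.3 and 3.58 ± 0.32 CPM at the low and medium doses. DUSP1, a broader phosphatase chosen after its values were seen, had 55.3, 50.1 and 46.3 CPM at the high dose, against 8.11, 9.19 and 8.73 CPM in the vehicle (2.54). The secreted cytokine IL11 had 87.8, 76.3 and 83.6 CPM at the high dose, against 5.51, 5.51 and 6.13 CPM in the vehicle (3.85), and CXCL8, the chemokine interleukin-8, had 9.80, 10.4 and 10.8 CPM at the high dose, against 1.89, 2.38 and 1.89 CPM in the vehicle (2.32).

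Promoters of VGF (chr7:101165570-101165819, minus strand), AREG (chr4:74444886-74445135, plus strand) and DUSP1 (chr5:172771196-172771445, minus strand) are shown as examples. They were picked from the genes that rose because each holds TGACGTCA, the cAMP response element, in capitals. The match is therefore part of the choice, and its part in the rise was not tested. This palindrome stands in 1.65% of the windows. It lies 79 to 72 bases upstream in VGF, 65 to 58 in AREG and 125 to 118 in DUSP1. Of the 15 genes with the largest rise 11 had a window in the table, and 1 of those, VGF, held this element.
VGF: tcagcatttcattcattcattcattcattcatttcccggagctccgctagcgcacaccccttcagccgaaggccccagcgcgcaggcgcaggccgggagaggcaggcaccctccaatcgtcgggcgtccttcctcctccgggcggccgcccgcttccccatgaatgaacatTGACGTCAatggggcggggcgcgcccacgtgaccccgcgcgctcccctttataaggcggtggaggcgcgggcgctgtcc
AREG: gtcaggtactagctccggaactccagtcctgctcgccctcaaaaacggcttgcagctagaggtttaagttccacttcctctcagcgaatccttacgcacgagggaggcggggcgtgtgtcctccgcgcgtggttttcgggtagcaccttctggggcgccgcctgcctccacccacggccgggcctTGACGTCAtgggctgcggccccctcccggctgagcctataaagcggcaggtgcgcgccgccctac
DUSP1: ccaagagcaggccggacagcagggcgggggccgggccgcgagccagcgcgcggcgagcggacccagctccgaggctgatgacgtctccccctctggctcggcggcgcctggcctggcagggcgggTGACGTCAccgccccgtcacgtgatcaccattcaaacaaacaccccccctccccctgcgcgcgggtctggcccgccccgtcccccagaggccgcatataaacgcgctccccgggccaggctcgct

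Several genes of secreted proteins changed strongly. IGFBP1, a liver binding protein for insulin-like growth factors, had 999, 944 and 1009 CPM at the high dose, against 42.3, 38.4 and 46.0 CPM in the vehicle, a log2 fold change of 4.54 (SE 0.12). GDF15, a stress hormone of the TGF-beta family, had 1096, 962 and 1116 CPM at the high dose, against 164, 156 and 177 CPM in the vehicle (2.68). At the medium dose IGFBP1 averaged 97.9 ± 8.5 CPM and GDF15 205 ± 1.7 CPM, both far below the high dose libraries. IGFBP3 had 122, 100 and 137 reads, against 4, 4 and 4 reads in the vehicle (ratio 29.2, exact 95% interval 16.5 to 57, counting error only), and IGF2, a fetal growth factor, was lower, with 1018, 891 and 951 CPM at the high dose, against 1457, 1506 and 1523 CPM in the vehicle (-0.65).

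Genes of the p53 pathway rose and genes of the cell cycle fell. Of 27 p53 targets, 25 were higher and none lower than in the vehicle, with a median of 0.60. CDKN1A, the cell cycle inhibitor p21, had 452, 441 and 472 CPM at the high dose, against 103, 101 and 102 CPM in the vehicle (2.15, SE 0.035). Its level was 81.9 ± 1.6 CPM at the low dose and 102 ± 1.8 CPM at the medium dose, below every high dose library. The polo-like kinase gene PLK3 (1.73) and SESN2 were among the others. CDKN2B, the inhibitor p15, which stands on the list of TGF-beta targets, had 38.0, 33.6 and 34.1 CPM at the high dose, against 6.79, 6.55 and 5.74 CPM in the vehicle (2.47).

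All 26 mitosis genes, all 28 genes of DNA replication and 17 of 18 genes of DNA repair were lower than in the vehicle, with medians of -0.83, -0.60 and -0.49. KIF20A, a motor of cell division, had 29.6, 32.2 and 32.4 CPM at the high dose, against 75.0, 76.0 and 79.1 CPM in the vehicle (-1.29). PLK1, a mitotic kinase, had 124, 120 and 124 CPM at the high dose, against 274, 268 and 283 CPM in the vehicle (-1.16), and MCM5, a subunit of the replicative helicase, had 71.2, 74.4 and 76.9 CPM at the high dose, against 145, 149 and 148 CPM in the vehicle (-0.99). No high dose library overlapped a vehicle library in these genes. Against the medium dose the same lists had medians of -0.82, -0.71 and -0.62. In libraries from whole cultures, fewer cells in a phase of the cycle and less RNA per cell cannot be told apart.

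**Figure D3:**
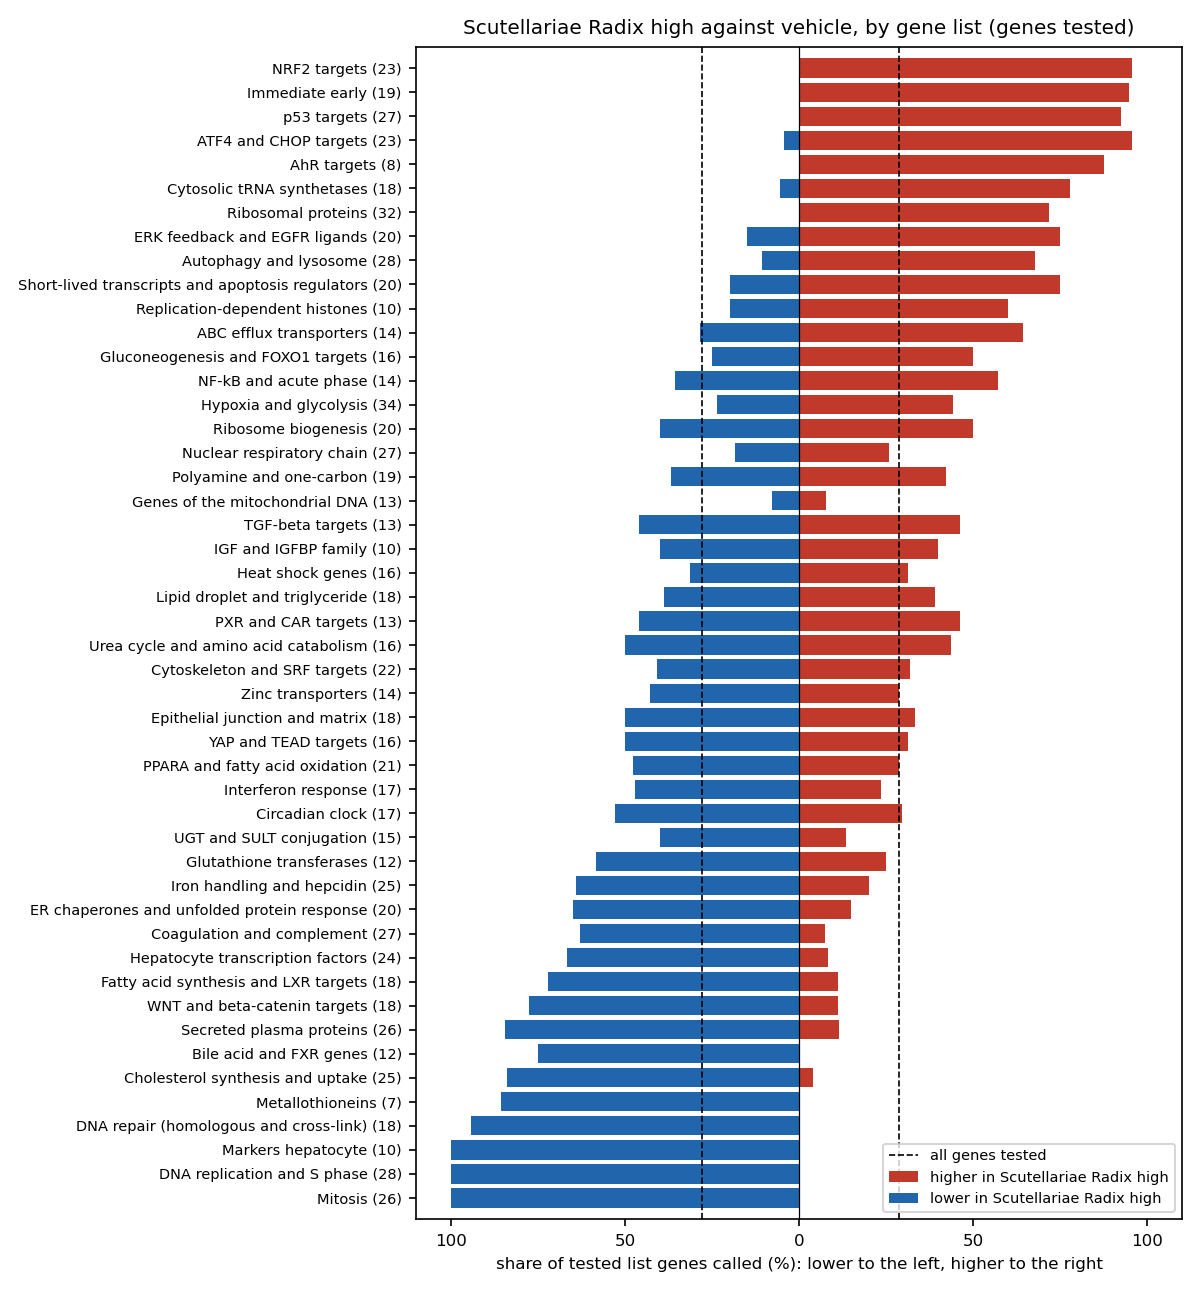
Share of the tested genes of each list, in percent, that were called higher (red, to the right) or lower (blue, to the left) in Scutellariae Radix high than in the vehicle, with the number tested in brackets. Dashed lines mark 28.7% and 28.1%, the shares over all genes tested, and the bars of the mitosis and DNA replication lists reach 100% on the lower side.

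The largest fall among genes at or above the same level was in hepcidin. HAMP, the hepcidin gene (chromosome 19, 35280716 to 35285143), had 5.31, 4.73 and 5.13 CPM at the high dose, against 69.9, 61.4 and 64.0 CPM in the vehicle, a log2 fold change of -3.68 (SE 0.11, adjusted p = 1.9e-30, edgeR). It averaged 79.8 ± 6.5 CPM at the low and 57 ± 0.78 CPM at the medium dose. Every high dose library was below every other library of the series. Of 27 genes of iron handling and hepcidin control 25 were tested. Beside shares of 28.7% higher and 28.1% lower over all genes tested, 5 of them were higher and 16 lower, with a median of -0.32. Some members known to answer to BMP and SMAD signals were among the lower ones. ID1, an inhibitor of DNA binding, had 68.1, 69.4 and 79.6 CPM at the high dose, against 177, 165 and 194 CPM in the vehicle (-1.30), and ID3 had 24.1, 22.1 and 23.5 CPM at the high dose, against 65.7, 61.3 and 66.3 CPM in the vehicle (-1.47). The inhibitory SMAD genes SMAD6 (-1.21) and SMAD7 (-1.01), ID2 (-1.15) and, outside the list, the BMP effector SMAD9 (-1.54), all chosen after their values were seen, were lower too. ATOH8, a transcription factor of the same pathway, had 7, 2 and 7 reads at the high dose, against 39, 37 and 36 reads in the vehicle (ratio 0.139, exact 95% interval 0.077 to 0.236, counting error only). The list of TGF-beta targets, which also holds ID1, was split, with 6 of 13 tested genes higher and 6 lower (median 0.02). Its values ran from -1.30 to 3.22, and the part of BMP and SMAD signals in the fall of HAMP was not tested. TMPRSS6, a protease that restrains hepcidin, also fell, with 1.51, 1.55 and 1.15 CPM at the high dose, against 5.06, 4.58 and 4.64 CPM in the vehicle (-1.76). TFRC, the transferrin receptor, was higher than in the vehicle, with 598, 597 and 573 CPM at the high dose, against 475, 482 and 453 CPM in the vehicle (0.33), and its difference from the low (0.04, adjusted p = 0.35, edgeR) and the medium dose (-0.07, adjusted p = 0.11) did not pass the test.

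The HAMP promoter (chr19:35282278-35282527, plus strand) is shown because of this fall. Capitals mark GGCGCC, the core of a BMP response element, a palindrome that stands in 16.4% of the windows and lies here 105 to 100 bases upstream.
HAMP: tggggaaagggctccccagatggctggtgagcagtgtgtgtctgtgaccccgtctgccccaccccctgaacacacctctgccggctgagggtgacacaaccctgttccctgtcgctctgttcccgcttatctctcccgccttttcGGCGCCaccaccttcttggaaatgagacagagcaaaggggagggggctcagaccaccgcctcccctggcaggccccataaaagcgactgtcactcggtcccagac

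Metallothioneins, small proteins that bind zinc and copper, fell. Of 8 listed genes 7 were tested, and 6 were lower and none higher than in the vehicle, with a median of -1.73. Their reads are shared among near-identical genes by the counting, so these are not fully separate measurements. MT1G had 39.8, 33.3 and 37.5 CPM at the high dose, against 146, 126 and 143 CPM in the vehicle (-1.90), and averaged 98.8 ± 14 and 104 ± 10 CPM at the low and medium doses. MT1X had 20.8, 18.0 and 22.6 CPM at the high dose, against 68.9, 63.2 and 72.6 CPM in the vehicle (-1.73), and MT1F had 18.3, 16.8 and 17.3 CPM at the high dose, against 62.1, 54.1 and 63.0 CPM in the vehicle (-1.77). MT2A, chosen after its values were seen, fell less, with 333, 271 and 311 CPM at the high dose, against 514, 436 and 501 CPM in the vehicle (-0.66), and did not pass the test between the high and low doses (-0.17, adjusted p = 0.12, edgeR). Among 14 zinc transporters 4 were higher and 6 lower, with a median of -0.04, beside shares of 28.7% higher and 28.1% lower over all genes tested. The importer SLC39A10 (0.93) and the manganese exporter SLC30A10 (-0.66) were among them.

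Promoters of MT1X (chr16:56682220-56682469, plus strand) and MT2A (chr16:56608334-56608583, plus strand) are shown as family members with a large and a small fall. Capitals mark the metal response element, TGCACNC or TGCGCNC on either strand. At least 1 stands in 24.8% of the windows and at least 4 in 0.37%. MT1X holds 4, between 150 and 47 bases upstream, and MT2A holds 7, between 246 and 2 bases upstream.
MT1X: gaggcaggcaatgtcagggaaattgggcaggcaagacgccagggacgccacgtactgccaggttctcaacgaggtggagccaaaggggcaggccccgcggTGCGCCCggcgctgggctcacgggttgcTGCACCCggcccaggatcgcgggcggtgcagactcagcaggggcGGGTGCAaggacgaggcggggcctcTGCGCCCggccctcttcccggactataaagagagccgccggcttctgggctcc
MT2A: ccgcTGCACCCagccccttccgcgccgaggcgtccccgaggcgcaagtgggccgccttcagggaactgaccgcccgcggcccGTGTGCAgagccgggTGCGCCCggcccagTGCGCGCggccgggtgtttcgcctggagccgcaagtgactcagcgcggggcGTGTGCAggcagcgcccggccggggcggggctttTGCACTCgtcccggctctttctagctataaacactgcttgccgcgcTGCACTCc

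The other genes with the largest falls had varied roles. SLC6A12, a betaine transporter, had 1.26, 1.27 and 1.69 CPM at the high dose, against 9.38, 8.85 and 9.20 CPM in the vehicle (-2.70). KNG1, kininogen, had 1.41, 1.19 and 0.996 CPM at the high dose, against 7.28, 6.66 and 5.98 CPM in the vehicle (-2.46). The acyl-CoA synthetases ACSM2A (-2.42) and ACSM2B (-2.29), near copies of each other, OLFML3 (-1.99), the cortisol-inactivating HSD11B2 (-1.92), the diacylglycerol kinase gene DGKK (-1.89), the tight junction gene TJP3 (-1.81), the potassium channel gene KCNJ10 (-1.79) and the sodium channel subunit gene SCNN1A (-1.79) were the others. The rule also took AC026464.6 (-2.99) and AC087190.3 (-2.85), which are listed at 0 CPM in 2 of the 3 high dose libraries, and their values depend on how the counting splits reads. AC087190.3 missed the threshold with DESeq2 (adjusted p = 0.52) and with either of 2 high dose or either of 2 vehicle libraries left out (adjusted p 0.071 to 0.14, edgeR). For 9 of the 15 genes with the largest fall the highest high dose library lay below all 55 other libraries, as it did for 540 of all genes tested (3.87%). These 15 were chosen by the rule used for the rises.

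Most listed liver products and their regulators were lower, beside shares of 28.7% higher and 28.1% lower over all genes tested. Of 27 listed plasma proteins 26 were tested, 3 were higher and 22 lower than in the vehicle (median -0.42). Of 27 tested genes of coagulation and complement 2 were higher and 17 lower (median -0.27). The largest change on the coagulation and complement list was a rise of 3.22, beside a largest fall of -1.04. APOH, apolipoprotein H, had 624, 590 and 592 CPM at the high dose, against 1310, 1264 and 1364 CPM in the vehicle (-1.12). ALB, albumin, had 8271, 8309 and 8358 CPM at the high dose, against 10386, 10035 and 10547 CPM in the vehicle (-0.31), and did not pass the test between the high and medium doses (-0.07, adjusted p = 0.12, edgeR). Of 24 tested hepatocyte transcription factors 2 were higher and 16 lower (median -0.27). CEBPA had 52.4, 61.0 and 62.6 CPM at the high dose, against 138, 140 and 140 CPM in the vehicle (-1.25), and its relative CEBPB had 59.1, 67.9 and 78.8 CPM at the high dose, against 26.4, 24.8 and 30.4 CPM in the vehicle (1.33). NR1H4, the bile acid receptor FXR, had 24.0, 25.7 and 24.6 CPM at the high dose, against 75.5, 72.4 and 74.1 CPM in the vehicle (-1.58), and of 12 tested genes of bile acid handling 9 were lower and none higher (median -0.52).

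Most cholesterol genes were lower. Of 25 tested genes of cholesterol synthesis and uptake 21 were lower and 1 higher than in the vehicle, with a median of -0.31. HMGCS1, an early enzyme of the pathway, had 326, 342 and 334 CPM at the high dose, against 479, 484 and 463 CPM in the vehicle (-0.51). Of 18 tested fatty acid synthesis and LXR genes 13 were lower and 2 higher (median -0.28), with SREBF1 at -0.79. The next 3 lists are set beside shares of 28.7% higher and 28.1% lower over all genes tested. Of 15 tested genes of UGT and SULT conjugation 2 were higher and 6 lower (median -0.07). Of 13 PXR and CAR targets 6 were higher and 6 lower (median 0.17), and of 12 glutathione transferases 3 were higher and 7 lower (median -0.23). The bilirubin conjugating gene UGT1A1 had 66, 48 and 53 reads at the high dose against 4, 3 and 7 reads in the vehicle (ratio 11.6, exact 95% interval 6.74 to 21.7, counting error only). It shares exons with other UGT1A genes, so its count is uncertain. The efflux pump gene ABCC2 had 786, 819 and 747 CPM at the high dose, against 349, 335 and 335 CPM in the vehicle (1.21), and the glutathione transferase gene GSTA1 had 34.5, 30 and 31.8 CPM at the high dose, against 79.0, 76.8 and 82.9 CPM in the vehicle (-1.31), sharing reads with GSTA2 (-1.22).

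Between the high and the low dose 3799 genes were higher (27.2%) and 3972 lower (28.5%), and between the high and the medium dose 3736 were higher and 3773 lower. Replicate 3 of the low dose stood apart from its group, with a chi-square of 17.2 and 13.7 per gene against the others, which differed by 3.39. Without it 7284 genes passed the test between high and low, and without replicate 1 or 2 of the low dose 7343 and 7399, beside 7771 with all 3. The 5 largest rises over the low dose were in HSPA6, MMP3 (5.72), VGF (4.95), IGFN1 (4.74) and AQP3 (4.53), and over the medium dose in HSPA6, MMP3 (4.81), TAGLN3 (4.63), IGFN1 (4.32) and FOS (4.32). The largest falls from the low dose were in HAMP (-3.98), ACSM2B (-2.40), ACSM2A (-2.30), the pseudogene ACSL3P1 (-2.25) and SLC6A12 (-2.04). From the medium dose they were in HAMP (-3.49), ACSM2B (-1.92), ACSL3P1 (-1.67), OLFML3 (-1.64) and DGKK (-1.59). HSPA6 had no reads in the 3 low dose libraries, which gives no fold, and 0.0706, 0 and 0.124 CPM at the medium dose.

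**Figure D4:**
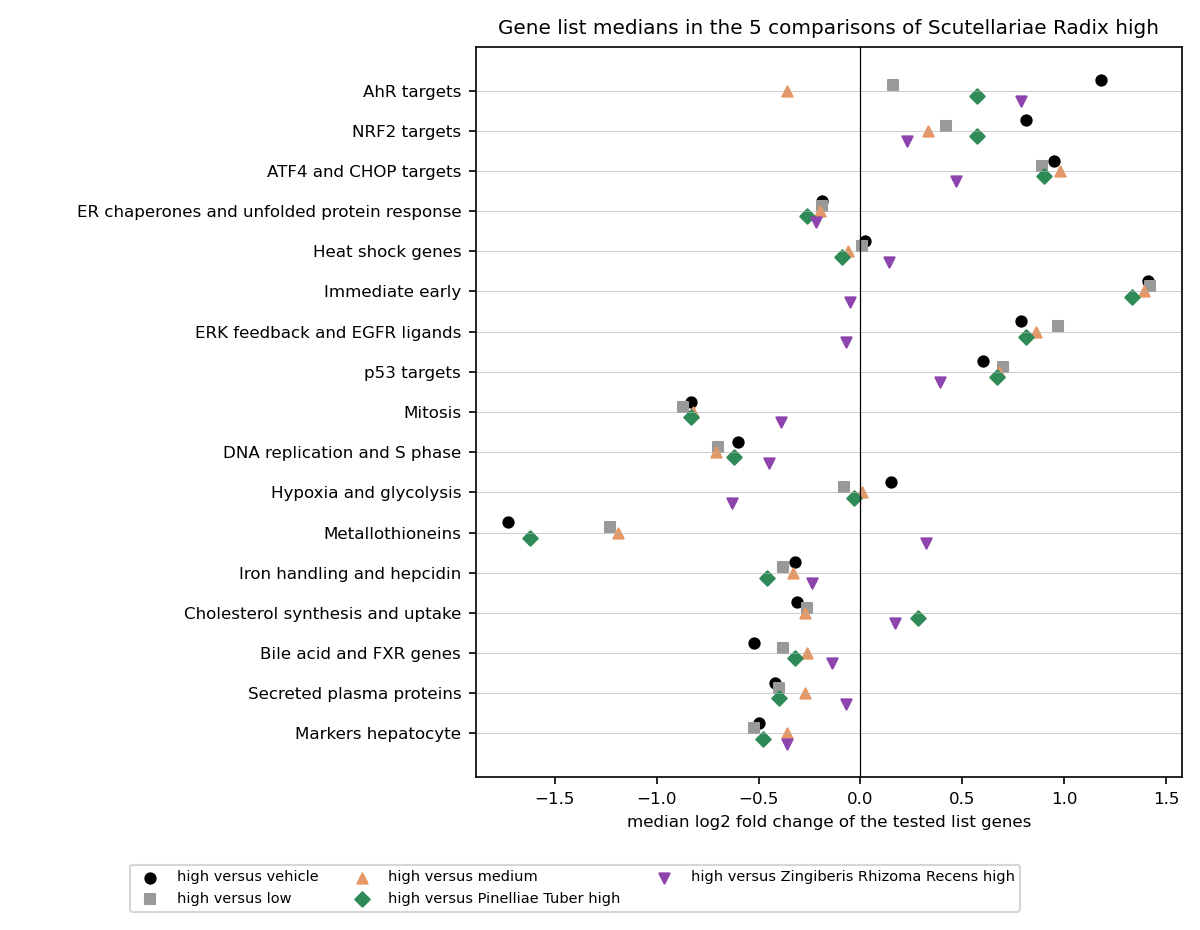
Median log2 fold change (horizontal) of the tested genes of 17 lists (vertical) in 5 comparisons that all have Scutellariae Radix high on top and share its 3 libraries. AhR targets lie above 0 against the vehicle and below 0 against the medium dose, and the cholesterol list lies below 0 against the vehicle and the lower doses and above 0 against both other extracts.

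Pinelliae Tuber at the same 500 µg/mL shares the label prefix. Against it, 3788 genes were higher (27.2%) and 4007 lower (28.7%) in Scutellariae Radix high. The largest rises were in HSPA6, MMP3 (5.23), VGF (4.65), IGFN1 (4.65) and AQP3 (4.50), and the largest falls in HAMP (-3.73), SLC6A12 (-2.78), ACSM2B (-2.24), ACSM2A (-2.21) and KNG1 (-2.20). CYP1A1 averaged 470 ± 14 CPM in Scutellariae Radix high and 48.2 ± 1.7 CPM in Pinelliae Tuber (SD, n = 3 each), a log2 fold change of 3.29. Among the cholesterol genes 20 of 25 were higher and 1 lower in Scutellariae Radix high (median 0.28), as in HMGCS1 with 334 ± 7.9 CPM in Scutellariae Radix high against 258 ± 2.5 CPM in Pinelliae Tuber (0.37).

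Fresh ginger at 500 µg/mL has another label prefix, so extract and prefix cannot be told apart in this comparison. Its libraries were less even, and replicate 1 differed from the others by a chi-square of 8.47 and 9.44 per gene, beside 3.74 between them. Scutellariae Radix high had 3001 genes higher (21.5%) and 3151 lower (22.6%) than fresh ginger. Of the immediate early genes, 6 of 19 were higher and 4 lower (median -0.05). FOS averaged 7.85 ± 0.96 CPM in Scutellariae Radix high and 9.54 ± 0.78 CPM in fresh ginger (-0.28, SE 0.14, adjusted p = 0.09, edgeR). IGFBP1 averaged 984 ± 35 CPM in Scutellariae Radix high and 893 ± 24 CPM in fresh ginger (0.14, SE 0.099, adjusted p = 0.26). Higher in Scutellariae Radix high were HSPA6, with 13.6 ± 0.72 CPM against 0.154 ± 0.073 CPM in fresh ginger, VGF (4.10), IGFN1 (4.04), CYP1A1 (3.25) and MMP3 (3.18). AREG averaged 69.0 ± 1.7 CPM in Scutellariae Radix high and 12.2 ± 0.33 CPM in fresh ginger (2.49), and IL11 82.6 ± 5.8 CPM in Scutellariae Radix high and 13.9 ± 0.68 CPM in fresh ginger (2.57). Lower were LCN15, a lipocalin gene (-4.20), CA9, a carbonic anhydrase gene of the hypoxia response (-3.51), the long non-coding RNA UCA1 (-3.34), HAMP (-2.58) and FXYD1 (-2.55). Of 34 hypoxia and glycolysis genes 33 were lower and 1 higher in Scutellariae Radix high than in fresh ginger (median -0.63), whereas against the vehicle 15 were higher and 8 lower (median 0.15). Among single genes, ID1 was lower than in fresh ginger too, at 72.4 ± 6.3 CPM in Scutellariae Radix high and 192 ± 21 CPM in fresh ginger (-1.41), as was ID3, at 23.3 ± 1 CPM in Scutellariae Radix high and 69.8 ± 4.3 CPM in fresh ginger (-1.58). In the vehicle ID1 averaged 179 ± 15 CPM and ID3 64.4 ± 2.8 CPM. HAMP averaged 30.4 ± 2.2 CPM in fresh ginger and 65.1 ± 4.3 CPM in the vehicle. Fresh ginger was not tested against the vehicle.

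**Figure D5:**
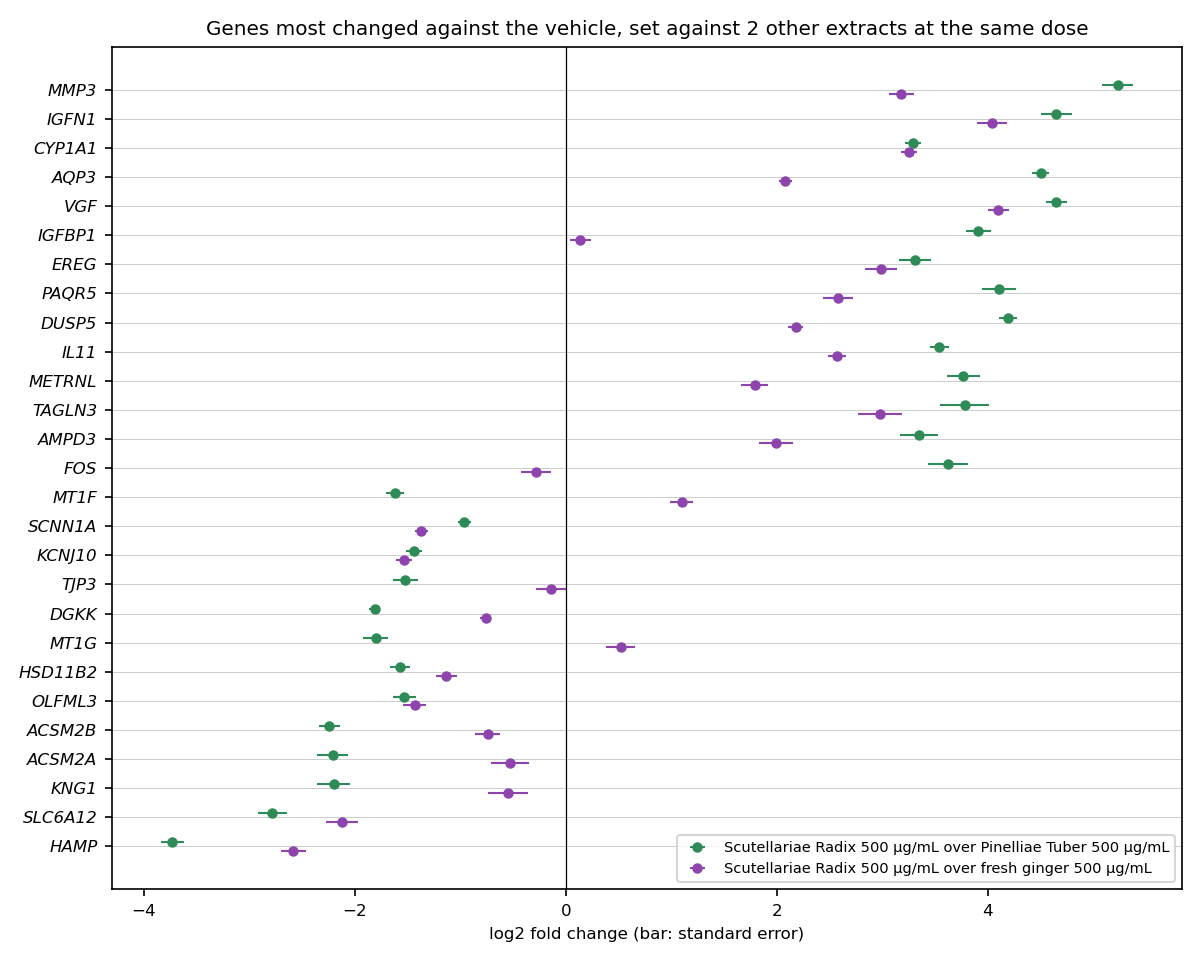
Log2 fold change (horizontal, bar: SE of the fit) of Scutellariae Radix high over Pinelliae Tuber and over fresh ginger, all at 500 µg/mL and with 3 libraries each. The genes (vertical) are those with the largest rise or fall against the vehicle, with HSPA6, AC026464.6 and AC087190.3 left out. FOS and IGFBP1 lie near 0 against fresh ginger and above 3 against Pinelliae Tuber, while VGF and IGFN1 lie above 4 against both.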

How the data were processed

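Messenger RNA was read as directional libraries of HepG2 cells after 24 h of treatment. The values used are expected counts per gene as the authors deposited them. The submitters' processing notes name FastQC 0.11.9, Trim Galore 0.6.5, STAR 2.7.3a, RSEM 1.3.3 and GRCh38, and give no settings; the annotation release is not given in the sources used here. RSEM divides reads that match several genes among them, so close paralogs, pseudogenes and overlapping genes depend on that split. Of the nonzero values 75.26% were whole, and all were rounded. The table held 209 further columns that were not used. The wortmannin control was not analysed here.

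Symbols were found for 57055 of 60675 gene identifiers, in a current name table (41209) or else in GENCODE 29 (15846), the source of gene positions. The 13945 genes that reached 1 CPM in 3 or more of the 58 libraries were tested with edgeR 4.0.16 in R 4.3.3: TMM factors (0.878 to 1.04 over all, 1.02 to 1.04 at the high dose, 1.01 to 1.02 in the vehicle) and quasi-likelihood with 1 mean for each of 24 groups, adjusted by Benjamini-Hochberg within a comparison at 0.05. The SE was derived as the size of the log2 fold change divided by the root of the F statistic. The script was tested on simulated counts. Depth was 22143845 to 31859981 per library, and no replicate was a copy of another (lowest chi-square 2.19 per gene).

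The gene lists and the genes named were chosen with earlier results of these data known, so lists are described by counts and medians and carry no test. Some members of the lists are not reported here. The text names, against the vehicle, from the 15 largest rises and falls among called genes with a symbol, a mean of 5 CPM or more where higher and groups that did not overlap, from up to 4 called members of each list and from a panel, and in other comparisons the 5 largest each way. Alternatives were DESeq2 1.42.0, RLE scaling, no filter, only the groups compared, a replicate block and leaving out each replicate. Promoter windows are from RefSeq (GRCh38.p14), and 11 of the 15 largest rises and 6 of the 15 largest falls had one.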

Additional observations from a re-analysis of the deposited data

How the results depend on the processing

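Against the vehicle 7912 genes passed the test, and RLE scaling, no filter on low counts, DESeq2, a fit of the compared groups alone and leaving out any 1 library gave 7296 to 8182. The fit of the compared groups alone gave fewer genes against the low dose (6903, beside 7771) and against fresh ginger (5053, beside 6152). It gave slightly more against the medium dose (7543, beside 7509) and against Pinelliae Tuber (7907, beside 7795). The count at 2-fold or more was 691, and 1218 without the filter, which adds genes with few reads; leaving out 1 library gave 703 to 715. Of 1464 values for 122 named genes over 12 alternatives against the vehicle, 1444 kept their direction and side of the threshold, 18 no longer passed it and 2 turned. Those 2 were of LCN15, which did not pass against the vehicle, at -0.33 to 0.18 with 1 library left out and above 0 without high replicate 3 (0.13) or vehicle replicate 3 (0.18). The 18 were of HSPA8, AC087190.3, FXYD1 and H4C3. RLE scaling moved no list median by more than 0.0058 on the log2 scale. Same-numbered libraries deviated from their group means with correlations of 0.00153, 0.0642 and 0.0157, none above 0.1. What they share besides a number cannot be told from these values. The highest correlation was between library 2 of the high dose and vehicle library 2 (0.0642), while library 1 of the high dose correlated best with vehicle library 3 (0.0531). With the replicate block 7921 genes passed the test, and 8465 with the block in a fit of the compared groups alone. Prefix and treatment cannot be told apart against the vehicle, 3 libraries a group may be technical repeats, and genes with few reads or close copies are the least certain.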

Other observations

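Among the other lists, read against shares of 28.7% higher and 28.1% lower over all genes tested, autophagy and lysosome genes were mostly higher at the high dose than in the vehicle, with 19 of 28 higher and 3 lower (median 0.28). They included the cargo receptor gene SQSTM1 (1.15 on the log2 scale), MAP1LC3B (1.12) and GABARAPL1 (1.2), whose products sit on autophagosome membranes, and the protease gene CTSL (0.81). Of 18 tested WNT and beta-catenin targets 14 were lower and 2 higher (median -0.30), with the WNT inhibitor genes DKK1 (-1.32), DKK4 (-1.34), NOTUM (-0.90) and NKD1 (-0.89) among the lower and MYC (0.48) higher. Of 32 ribosomal protein genes 23 were higher than in the vehicle and none lower (median 0.17), while 5 were higher than at the low dose. Of 13 genes of the mitochondrial DNA 1 was higher and 1 lower than in the vehicle.

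The remaining lists are read against the same shares of 28.7% higher and 28.1% lower over all genes tested. Of 10 tested replication-dependent histone genes 6 were higher and 2 lower than in the vehicle (median 0.77). H4C8 (1.5), H2BC21 (1.49) and H2BC4 (1.22) were higher, and H4C3, with 22 reads over the 3 high dose libraries and 56 over the 3 vehicle libraries, was lower, but missed the threshold without high replicate 1, high replicate 3 or vehicle replicate 2 (adjusted p 0.054 to 0.14, edgeR). Histone copies share reads, so these values are uncertain. Of 17 tested clock genes 5 were higher and 9 lower (median -0.16), with DBP (-1.42) and TEF (-0.71) lower and the repressor gene BHLHE40 (1.61) higher. Of 17 tested interferon response genes 4 were higher and 8 lower (median -0.29), with OAS1 (0.88) higher and IFIH1 (-0.79) lower.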
